A study of Mus musculus with 6 samples.

Results

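The zona pellucida and oocyte growth factor genes of the mouse ovary were followed as a group of 5 genes out of the 55487 in the count table: Zp1, Zp2, Zp3, Gdf9 and Bmp15. They are defined by symbol, a rule that uses no measured value, although the group was proposed with earlier results of these data known. Each symbol matched 1 Ensembl identifier. The ovaries came from 3 GalTKO samples (genotype GalT-/-, lacking galactose-1-phosphate uridylyltransferase, the enzyme of galactose breakdown that is missing in classic galactosemia) and 3 wildtype samples. All 6 share the strain label cbl/6-ola/129, were taken at postnatal day 49 and came from mice fed a diet with 2.5% galactose for 4 weeks. The labels do not say whether a sample is 1 animal, and they name neither litter nor estrous stage, and every p-value here rests on the spread among the 3 samples of a genotype, which may be technical.

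The zona pellucida is the extracellular coat that the growing oocyte secretes around itself. In the mouse it is built of ZP1, ZP2 and ZP3: ZP2 and ZP3 alternate along filaments, ZP1 cross-links the filaments, and sperm bind to ZP2. GDF9 and BMP15 are ligands of the TGF-beta family that the oocyte secretes to the surrounding granulosa and cumulus cells, where they act through BMPR2 and type I receptors on SMAD proteins. In whole ovary these 5 transcripts therefore report on growing oocytes, a small part of the tissue.

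Zp3 and Bmp15 are the genes of the group with a start region in the RefSeq table, so their regions are shown. The regions of Zp1, Zp2 and Gdf9 were not examined, and the letters are not set against the direction of change. Each line gives the 250 bases before the RefSeq transcription start, 5′ to 3′ on the gene's strand (GRCm38.p6); capitals mark every CANNTG, the E-box core to which the oocyte factor FIGLA binds with its partner in zona gene promoters. The Zp3 region is chr5:135979855-135980104 (plus strand) and the Bmp15 region is chrX:6320725-6320974 (minus strand).
Zp3: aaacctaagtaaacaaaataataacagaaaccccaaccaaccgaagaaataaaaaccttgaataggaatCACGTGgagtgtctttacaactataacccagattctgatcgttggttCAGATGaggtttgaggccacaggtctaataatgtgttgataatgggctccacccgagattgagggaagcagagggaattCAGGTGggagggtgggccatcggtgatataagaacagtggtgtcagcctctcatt
Bmp15: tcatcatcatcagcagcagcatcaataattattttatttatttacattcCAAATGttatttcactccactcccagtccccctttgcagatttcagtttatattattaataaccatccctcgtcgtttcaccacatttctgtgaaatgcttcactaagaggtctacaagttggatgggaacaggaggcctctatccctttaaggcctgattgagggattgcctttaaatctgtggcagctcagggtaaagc
The Zp3 region held 3 E-boxes, starting 181, 134 and 55 bases before the start, and the first of them is the palindrome CACGTG. The Bmp15 region held 1, starting 201 bases before the start, and lacked the palindrome. The E-box core CANNTG, which reads the same on both strands, was present in 66.2% of 32851 RefSeq promoter windows of the same length, and CACGTG, a subset of it, in 6.02%. TAATTG, a sequence bound by the oocyte homeobox factor NOBOX, was searched on both strands. It was in neither window and was in 7.17% of all windows. Other forms of the NOBOX site were not searched, so this does not show that either region lacks one. A match describes letters only, and binding was not measured.

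All 5 genes were well measured. Library totals ran from 19232486 to 25729564 counts, and the 5 genes had between 449 and 2146 counts in each library, a counting error of 2.16% to 4.72% of the value. No annotated gene overlaps any of them in GENCODE M21. Galt itself had 0.155, 0.259 and 0 CPM in GalTKO replicates 1 to 3 and 17.8, 16.1 and 17.4 CPM in wildtype replicates 1 to 3, so the labels hold. CPM are counts scaled to a common library total, on library sizes scaled by TMM. Mitochondrial genes took 2.26%, 2.22% and 3.53% of the counts in GalTKO replicates 1 to 3, against 1.37%, 1.97% and 1.58% in wildtype replicates 1 to 3. This share did not overlap between the genotypes, as the ratios described further on did not, and its part in them was not tested. The oocyte and granulosa markers of an ovary were present, while 4 of 5 oviduct epithelium markers stayed at or below 0.542 CPM in every library. The exception was Ovgp1, an oviduct glycoprotein gene, at 20.3 CPM in wildtype replicate 2 and from 0.0431 to 0.80 CPM in the other libraries. Its part in the results was not tested, and values without that library are given where they move.

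None of the 5 genes passed the test between genotypes. Of 16957 genes tested with edgeR's quasi-likelihood test, 2.55% passed at an adjusted p under 0.05 (Benjamini-Hochberg), of which 1.13% of all genes were higher in GalTKO ovaries and 1.43% were lower. Among the 5 genes 0 passed, 0 had an unadjusted p under 0.05 (17.1% of all genes did), and 0 were called by DESeq2 or by limma voom. The log2 fold changes ran from -0.32 to 0.26 with a median of -0.10, against a median of 0.02 over all genes. In whole ovary fewer oocytes and less RNA per oocyte cannot be told apart.

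Zp2 (ENSMUSG00000030911; GRCm38 chromosome 7, 120126772 to 120145291, minus strand; 18 exon blocks) encodes the zona protein to which sperm bind. It had 70.9, 55.7 and 57.5 CPM in GalTKO replicates 1 to 3, against 83.7, 90.8 and 55.8 CPM in wildtype replicates 1 to 3. Wildtype replicate 3 lay inside the GalTKO range and the other 2 wildtype libraries lay above it. The means were 61.3 ± 8.30 CPM in GalTKO and 76.8 ± 18.5 CPM in wildtype ovaries (SD, n = 3 each). The log2 fold change was -0.32 ± 0.19 (SE; 95% interval -0.76 to 0.11; edgeR adjusted p = 0.436).

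Zp3 (ENSMUSG00000004948; chromosome 5, 135980099 to 135988624, plus strand; 8 exon blocks) encodes the partner of ZP2 in the filaments, without which the mouse oocyte forms no zona. Its values were 40.9, 35.2 and 30.9 CPM in GalTKO replicates 1 to 3, against 45.6, 51.8 and 31.8 CPM in wildtype replicates 1 to 3. The pattern over libraries was that of Zp2, with wildtype replicate 3 inside the GalTKO range. Zp3 averaged 35.7 ± 5.06 CPM in GalTKO and 43.1 ± 10.2 CPM in wildtype ovaries (SD, n = 3 each), a log2 fold change of -0.27 ± 0.19 (SE; 95% interval -0.70 to 0.16; edgeR adjusted p = 0.516).

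Zp1 (ENSMUSG00000024734; chromosome 19, 10914287 to 10920632, minus strand; 12 exon blocks) encodes the cross-linker of the coat. It stood at 31.1, 26.6 and 26.4 CPM in GalTKO replicates 1 to 3, against 24.5, 30.7 and 19.4 CPM in wildtype replicates 1 to 3. The groups overlapped, and the fold was on the other side of 1 from those of Zp2 and Zp3. Zp1 averaged 28.0 ± 2.66 CPM in GalTKO and 24.9 ± 5.64 CPM in wildtype ovaries (SD, n = 3 each), and its log2 fold change was 0.17 ± 0.17 (SE; 95% interval -0.21 to 0.55; edgeR adjusted p = 0.657).

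Gdf9 (ENSMUSG00000018238; chromosome 11, 53431023 to 53437904, plus strand; 4 exon blocks) encodes the ligand that mouse follicles need to grow past the primary stage. It had 59.2, 52.8 and 52.3 CPM in GalTKO replicates 1 to 3, against 64.7, 65.1 and 46.6 CPM in wildtype replicates 1 to 3. The GalTKO values lay between the lowest and the other 2 wildtype values. Gdf9 averaged 54.8 ± 3.87 CPM in GalTKO and 58.8 ± 10.5 CPM in wildtype ovaries (SD, n = 3 each), with a log2 fold change of -0.10 ± 0.14 (SE; 95% interval -0.41 to 0.21; edgeR adjusted p = 0.757).

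Bmp15 (ENSMUSG00000023279; chromosome X, 6314107 to 6320721, minus strand; 2 exon blocks) encodes the ligand that can pair with GDF9. It had 30.9, 31.2 and 31.3 CPM in GalTKO replicates 1 to 3, against 28.3, 29.7 and 20.1 CPM in wildtype replicates 1 to 3. Every GalTKO library lay above every wildtype library, as the groups of 23.7% of all tested genes also did not overlap. Bmp15 averaged 31.1 ± 0.23 CPM in GalTKO and 26.02 ± 5.22 CPM in wildtype ovaries (SD, n = 3 each). Its log2 fold change was 0.26 ± 0.15 (SE; 95% interval -0.08 to 0.59; edgeR adjusted p = 0.426). The GalTKO spread of 0.738% of the mean was below the counting error of a single library, 3.54% to 4.08%.

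**Figure D1:**
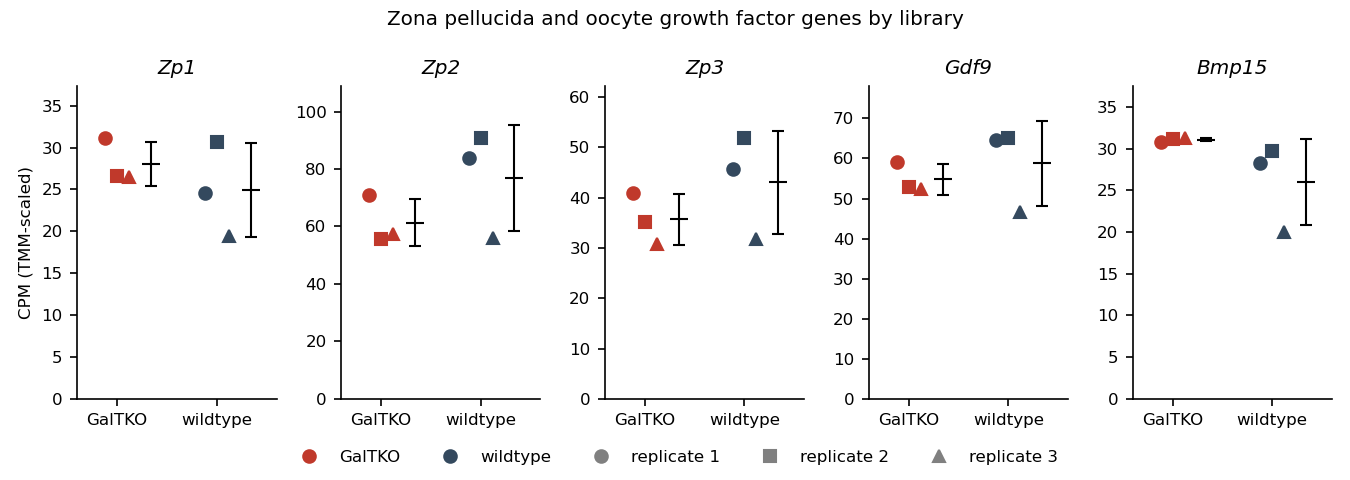
CPM (y axis, from 0) of Zp1, Zp2, Zp3, Gdf9 and Bmp15 in each library, GalTKO left and wildtype right; the marker shape gives the replicate number, and the black bar the mean with its SD (n = 3). Wildtype replicate 3 (triangle) is the lowest wildtype library in all 5 panels, and the Bmp15 groups alone do not overlap.

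One wildtype library was low for the whole group. Relative to the mean of wildtype replicates 1 and 2, wildtype replicate 3 held 0.704 of Zp1, 0.64 of Zp2, 0.653 of Zp3, 0.718 of Gdf9 and 0.692 of Bmp15. It was also the lowest wildtype library for 17 of 18 other growing oocyte genes, at 0.533 to 0.886 of that mean, while the median over all tested genes was 0.996. Without wildtype replicate 3 the log2 fold changes were -0.51 for Zp2 (edgeR adjusted p = 0.157), -0.45 for Zp3 (0.27), -0.25 for Gdf9 (0.381), 0.02 for Zp1 (0.972) and 0.10 for Bmp15 (0.77). Without wildtype replicate 2, the library with Ovgp1, they were -0.19 for Zp2, -0.12 for Zp3, -0.03 for Gdf9, 0.34 for Zp1 and 0.36 for Bmp15, none past the threshold. Without wildtype replicate 1 Gdf9 stood at -0.03, and without GalTKO replicate 1 Zp1 stood at 0.09 and Gdf9 at -0.16. Without GalTKO replicate 3 Zp3 stood at -0.18. No direction turned in any of these fits.

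Levels were compared between genes after division by union exon length, as CPM per kb. Zp3 stood at 27.0 ± 3.82 in GalTKO and 32.6 ± 7.74 in wildtype ovaries, Gdf9 at 27.0 ± 1.91 and 28.9 ± 5.19, Zp2 at 22.5 ± 3.05 and 28.2 ± 6.78, Zp1 at 14.2 ± 1.34 and 12.6 ± 2.85, and Bmp15 at 10.2 ± 0.0751 and 8.502 ± 1.70 (CPM per kb, SD, n = 3; GalTKO first in each pair). Zp1 and Bmp15 were the fourth and the fifth in order in all 6 libraries. Zp3 lay above Zp2 in all 6 libraries. Gdf9 lay between them except in GalTKO replicate 3, where it was above Zp3, and in wildtype replicate 2, where it was below Zp2. Averaged over the libraries, Zp3 lay above 90.6% of all tested genes per kb and Bmp15 above 68.2%.

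The proportions between the 5 genes separated the genotypes more often than their levels did. A ratio of counts from 1 library depends neither on library scaling nor on how much oocyte RNA the library holds. The mix of oocyte stages was not measured, and its part in the ratios was not tested. For 7 of the 10 pairs the 3 GalTKO ratios lay entirely on one side of the 3 wildtype ratios. Ratios between pairs of 18 other growing oocyte genes did so in 31.4% of 153 pairs. Pairs that share a gene are not independent in either set. The sets were not matched for counts: of the 18, Khdc3 averaged 2.87 CPM and Padi6 80.9 CPM in GalTKO ovaries. Counting noise is larger in ratios of low genes and makes overlap likelier, so the shares are not on equal terms. Each of the 7 had an exact two-sided permutation p of 0.1, the smallest that 3 against 3 libraries can give, and 0.143 after Benjamini-Hochberg adjustment over the 10 pairs, so none can pass at this sample size.

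The largest of these differences was between Zp2 and Bmp15. There were 2.30, 1.79 and 1.84 Zp2 counts per Bmp15 count in GalTKO replicates 1 to 3, against 2.96, 3.05 and 2.78 in wildtype replicates 1 to 3. The lowest wildtype ratio exceeded the highest GalTKO ratio, and the difference in mean log2 ratio was -0.58. Its counting error was at most 0.0782 (log2, SE) in a library, and the SDs of the log2 ratio were 0.199 in GalTKO and 0.0678 in wildtype ovaries.

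Bmp15 also differed in proportion to Zp3 and to its partner Gdf9. Zp3 counts per Bmp15 count were 1.33, 1.13 and 0.987 in GalTKO replicates 1 to 3, against 1.61, 1.74 and 1.59 in wildtype replicates 1 to 3, a log2 difference of -0.53. Gdf9 counts per Bmp15 count were 1.92, 1.69 and 1.67 in GalTKO replicates 1 to 3, against 2.29, 2.19 and 2.32 in wildtype replicates 1 to 3, a log2 difference of -0.37. Of the 153 pairs of other growing oocyte genes, 37.9% differed by at least as much as Gdf9 and Bmp15, in either direction. A shift of that size was thus common among these pairs. They include genes with lower counts, where counting noise makes differences larger, and the share was not matched for counts.

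Within the zona genes, Zp1 stood apart from Zp2 and Zp3. There were 0.439, 0.477 and 0.46 Zp1 counts per Zp2 count in GalTKO replicates 1 to 3, against 0.294, 0.338 and 0.349 in wildtype replicates 1 to 3, a log2 difference of 0.49. The Zp1 to Zp3 ratio differed by 0.44 and the Zp1 to Gdf9 ratio by 0.28 in the same direction, neither with overlap between the genotypes. The Zp2 to Gdf9 ratio differed by -0.21, again without overlap. The ratio of Zp2 to Zp3 overlapped: the mean log2 ratio was 0.78 ± 0.12 in GalTKO and 0.83 ± 0.04 in wildtype ovaries (SD, n = 3 each; exact permutation p = 0.7). The ratios of Zp1 to Bmp15 and of Zp3 to Gdf9 overlapped too, with log2 differences of -0.09 and -0.16 (exact permutation p = 0.5 and 0.2).

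**Figure D2:**
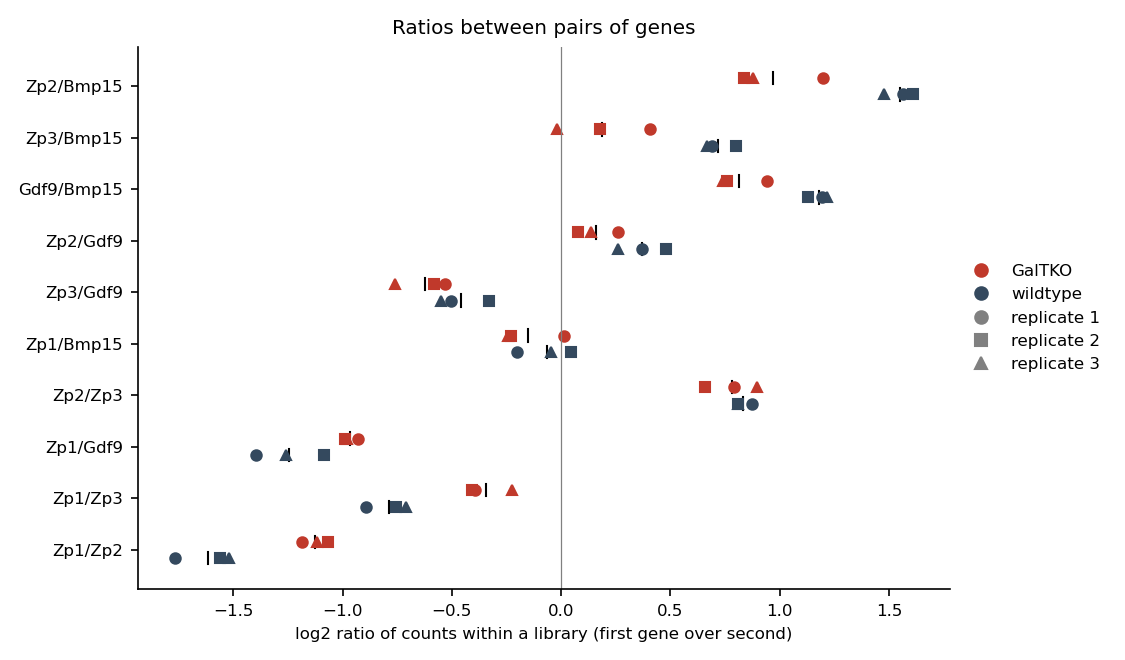
Log2 ratio of counts within a library (x axis) for each of the 10 pairs of genes (rows, first gene over second), GalTKO above and wildtype below in each row, marker shape by replicate and a black tick at the group mean. The genotypes are apart in 7 rows, from Zp2/Bmp15 with a log2 difference of -0.58 to Zp1/Zp2 with 0.49, and overlap for Zp3/Gdf9, Zp1/Bmp15 and Zp2/Zp3.

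Other oocyte transcripts served as a common scale, to place each gene above or below them. Division by a common sum leaves the differences among the 5 genes as the ratios gave them, so the split between them is not a further observation. The 18 growing oocyte genes are a list of maternal-effect and oocyte maturation genes that holds none of the 5. They were not matched to the 5 for counts. Counts of each of the 5 genes were divided by the summed counts of the 18. This sum was 405.2, 369.4 and 368.9 CPM in GalTKO replicates 1 to 3 and 400.5, 429.8 and 312.7 CPM in wildtype replicates 1 to 3. By this measure, chosen after the data were seen, the genotypes did not overlap for any of the 5 genes, against 13.6% of all tested genes and 4 of the 18 listed genes (22.2%), each taken over the rest of its list.

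Zp2 amounted to 17.5%, 15.1% and 15.6% of the oocyte sum in GalTKO replicates 1 to 3, against 20.9%, 21.1% and 17.9% in wildtype replicates 1 to 3. Zp3 averaged 9.34 ± 0.89% in GalTKO and 11.2 ± 0.95% in wildtype ovaries, and Gdf9 14.4 ± 0.23% and 15.4 ± 0.66% (SD, n = 3 each, GalTKO first). On this scale Zp2, Zp3 and Gdf9 were the lower ones in GalTKO ovaries. Bmp15 amounted to 7.61%, 8.44% and 8.48% in GalTKO replicates 1 to 3, against 7.06%, 6.92% and 6.41% in wildtype replicates 1 to 3. Zp1 averaged 7.35 ± 0.29% in GalTKO and 6.50 ± 0.56% in wildtype ovaries, with the lowest GalTKO value, 7.17%, next to the highest wildtype value, 7.14%. Bmp15 and Zp1 were thus the higher ones on this scale. Each difference had an exact two-sided permutation p of 0.1, the smallest possible, and 0.1 after adjustment over the 5 genes. With every listed gene weighted equally, 4 of the 5 genes did not overlap, against 14.6% of all tested genes and 7 of the 18 listed genes (38.9%), and Zp1 did (log2 difference 0.10, exact permutation p = 0.4). In the edgeR fit with library sizes taken from this sum, the log2 fold changes were -0.31 for Zp2, -0.26 for Zp3, -0.10 for Gdf9, 0.18 for Zp1 and 0.27 for Bmp15, with adjusted p of 0.668 or more.

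**Figure D3:**
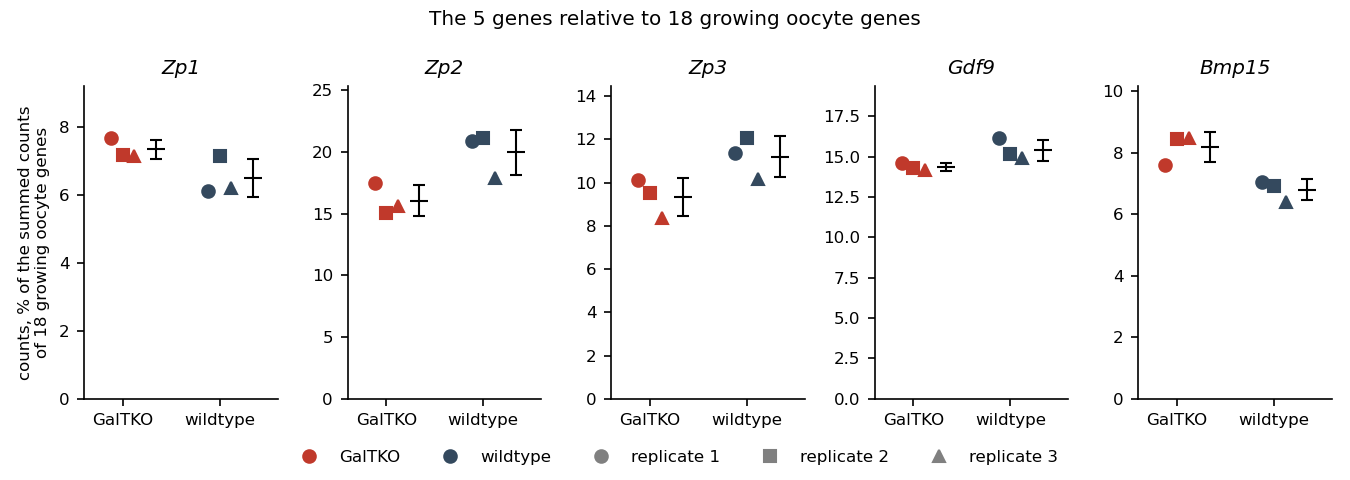
Counts of each of the 5 genes as a percentage of the summed counts of 18 growing oocyte genes (y axis, from 0), GalTKO left and wildtype right, marker shape by replicate and black bars for mean and SD (n = 3). Zp2, Zp3 and Gdf9 lie lower and Bmp15 and Zp1 higher in GalTKO, with a gap between 7.17% and 7.14% for Zp1.

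Over the 6 libraries the 5 genes varied together to different degrees. Likeness was measured as proportionality, 1 minus the variance of the log ratio over the summed variances, which is 1 for profiles that move in step. With the mean of the other 4 genes it was 0.939 for Gdf9, 0.778 for Zp3, 0.734 for Zp1, 0.724 for Zp2 and 0.516 for Bmp15. Among 13316 further named genes the profiles nearest to the mean of the 5 were those of Dnajc6 (0.974), Padi6 (0.963), Plcl1 (0.957), Dpep1 (0.956), Nlrp5 (0.951) and Gpr137c (0.945). Padi6 and Nlrp5 encode parts of the oocyte's cytoplasmic lattices and subcortical complex; Dnajc6 encodes a clathrin-uncoating cochaperone and Dpep1 a dipeptidase. Padi6, for example, had 89.6, 77.7 and 75.4 CPM in GalTKO replicates 1 to 3, against 98.6, 100.4 and 68.3 CPM in wildtype replicates 1 to 3, low in wildtype replicate 3 as the 5 genes were. These values describe 6 libraries that share the low wildtype replicate 3.

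Upstream of the 5 genes, the oocyte transcription factors did not pass the test. Of 8 tested, 0 passed in edgeR, DESeq2 or limma voom, and the median log2 fold change was 0.17. In edgeR 1 had an unadjusted p under 0.05, as 17.1% of all tested genes did. Nobox, the homeobox factor needed for expression of Gdf9 and Bmp15 in the mouse, averaged 10.1 ± 0.83 CPM in GalTKO and 8.86 ± 1.86 CPM in wildtype ovaries (SD, n = 3 each; log2 fold change 0.19 ± 0.18, SE). Sohlh1, which acts in early oocytes, had 0.155, 0.302 and 0.26 CPM in GalTKO replicates 1 to 3, against 0.9995, 0.55 and 0.52 CPM in wildtype replicates 1 to 3 (log2 fold change -1.53 ± 0.47, SE; adjusted p = 0.153 in edgeR). Sohlh1 was under 1 CPM in every library, so its fold rests on few counts. Sohlh2 stood at -0.50 ± 0.48 and Taf4b at 0.28 ± 0.24. Figla, the E-box factor of the zona genes, named for that role after its values were seen, had 0.813, 0.733 and 1.46 CPM in GalTKO replicates 1 to 3, against 0.96, 0.93 and 0.91 CPM in wildtype replicates 1 to 3. Without GalTKO replicate 2 Taf4b rose (0.52, edgeR adjusted p = 0.0406).

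Other oocyte genes lay on both sides of 0. Of the 18 growing oocyte genes 0 passed in edgeR, DESeq2 or voom, and the median log2 fold change was -0.00. In edgeR 3 had an unadjusted p under 0.05, as 17.1% of all tested genes did. Bcl2l10, an oocyte BCL2 family gene, stood at 0.45 ± 0.15, the oocyte linker histone gene H1foo at 0.37 ± 0.13, Btg4, needed for clearance of maternal mRNA, at 0.51 ± 0.25, and Ooep, of the subcortical complex, at -0.50 ± 0.17 (log2, SE). Of the 4 early oocyte genes 0 passed in edgeR and voom and 1 in DESeq2, Uchl1, and the median was -0.65. Before adjustment 3 of the 4 had p below 0.05 in edgeR, while the share over all tested genes was 17.1%. Without GalTKO replicate 1 Uchl1 passed in edgeR as well (-1.21, adjusted p = 0.0151). Uchl1, a ubiquitin hydrolase gene of oocytes, had 79.1, 45.5 and 42.5 CPM in GalTKO replicates 1 to 3, against 112.6, 111.5 and 81.5 CPM in wildtype replicates 1 to 3. The germ cell RNA helicase gene Ddx4 stood at -1.08 ± 0.35, the RNA-binding protein gene Dazl at -0.44 ± 0.15 and the receptor gene Kit at -0.06 ± 0.15.

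Among 8 other genes for oocyte surface and secreted proteins 0 passed in edgeR and voom and 1 in DESeq2, and the median was 0.36. In edgeR 3 had an unadjusted p under 0.05, as 17.1% of all tested genes did. The 3 were Oosp1, Oosp2 and Oosp3, oocyte-secreted proteins, each with its groups apart, as were those of 23.7% of all tested genes. Oosp1, the one DESeq2 called, had 10.5, 12.2 and 12.4 CPM in GalTKO replicates 1 to 3, against 7.92, 8.67 and 5.63 CPM in wildtype replicates 1 to 3 (log2 fold change 0.66 ± 0.18, SE; adjusted p = 0.12 in edgeR). Oosp2 stood at 1.003 ± 0.37, Oosp3 at 0.49 ± 0.18 and Bmp6, a further BMP ligand of oocytes, at 0.37 ± 0.27 (log2, SE).

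**Figure D4:**
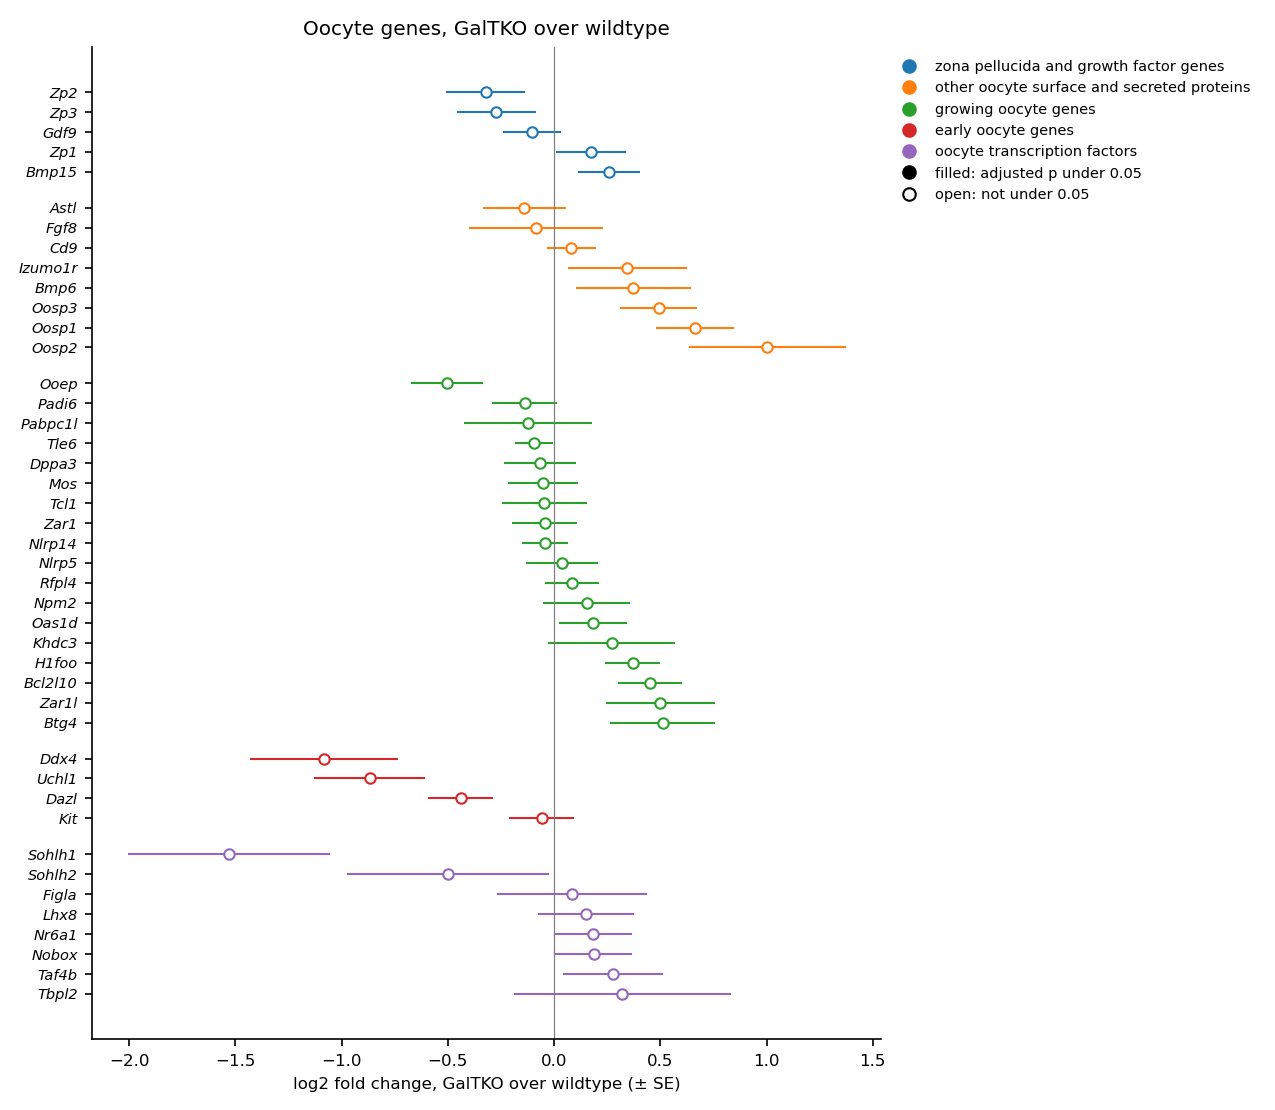
Log2 fold change of GalTKO over wildtype (x axis, points with SE from edgeR) for the 5 genes and 4 lists of other oocyte genes (rows, sorted within each list). All points are open because none passed an adjusted p under 0.05; the 5 genes span -0.32 to 0.26 and the early oocyte genes -1.08 to -0.06.

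Downstream, 1 of 11 receptor and SMAD genes for GDF9 and BMP15 passed and was lower, while 2.55% of all tested genes passed. Smad1, a transducer of BMP receptors, had 51.9, 63.2 and 67.3 CPM in GalTKO replicates 1 to 3, against 97.9, 112.9 and 134.9 CPM in wildtype replicates 1 to 3. Its groups were far apart, and the log2 fold change was -0.92 ± 0.14 (SE; adjusted p = 0.0154 in edgeR). Without wildtype replicate 2 the change was -0.95 and the adjusted p 0.0709; it passed in the 5 other fits with a library left out. The type II receptor gene Bmpr2 averaged 1001 ± 59.5 CPM in GalTKO and 1265 ± 95.9 CPM in wildtype ovaries (SD, n = 3 each; log2 fold change -0.34 ± 0.11, SE; adjusted p = 0.157 in edgeR). Bmpr1a, a type I receptor gene, stood at -0.26 ± 0.08 and Smad2, which carries GDF9 signals, at -0.13 ± 0.08. DESeq2 called 3 of the 11 genes and voom 1, and the median was -0.08. Before adjustment 3 of the 11 had p below 0.05 in edgeR, while the share over all tested genes was 17.1%. These genes are expressed by many ovarian cell types, so their values are not those of granulosa cells alone.

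None of 9 antagonist and inhibitory SMAD genes passed in edgeR or voom, 1 did in DESeq2, and the median was 0.03. In edgeR 2 had an unadjusted p under 0.05, as 17.1% of all tested genes did. Fst, follistatin, had 182.1, 213.1 and 177.3 CPM in GalTKO replicates 1 to 3, against 276.5, 230.3 and 238 CPM in wildtype replicates 1 to 3 (log2 fold change -0.38 ± 0.11, SE; adjusted p = 0.126 in edgeR). It passed without GalTKO replicate 2 (-0.47, adjusted p = 0.0445). Fstl3 stood at 0.47 ± 0.21 and Bmper at 0.23 ± 0.18. Grem1, a BMP antagonist of cumulus cells, spread from 12.9 to 76.4 CPM within the GalTKO group.

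The cumulus and granulosa genes that GDF9 or BMP15 are known to raise in mouse went both ways. Of 19 listed, 18 were tested. In edgeR 1 rose, 2 fell and 15 did not pass, and the median was -0.08. Before adjustment 7 of the 18 had p below 0.05, while the share over all tested genes was 17.1%. The 7 were Amh, which was higher, and 6 genes of cholesterol synthesis, which were all lower. These 6 were Cyp51, Dhcr7, Sqle, Fdps, Mvk and Pmvk, from -1.29 for Cyp51 to -0.46 for Pmvk (log2), each with its groups apart. Fdps, Mvk and Pmvk were chosen after their values were seen. Amh, anti-Müllerian hormone, rose with 291.9, 264.8 and 249.6 CPM in GalTKO replicates 1 to 3, against 172.7, 173.3 and 131 CPM in wildtype replicates 1 to 3 (log2 fold change 0.76 ± 0.13, SE; adjusted p = 0.0214 in edgeR). The 2 that fell, Dhcr7 (-1.12 ± 0.20) and Cyp51 (-1.29 ± 0.24), are enzymes of cholesterol synthesis, which luteal and theca cells use as well. Sqle, of the same pathway, stood at -1.09 ± 0.27 and did not pass. The count of 3 fell to 0 without GalTKO replicate 1 or wildtype replicate 1. It fell to 1 without GalTKO replicate 3, wildtype replicate 2 or wildtype replicate 3. DESeq2 called 7 of the 18, against 1049 of all 16957 genes. Dhcr7 did not pass without a filter on low counts (adjusted p = 0.0659 in edgeR). Cyp51 did not pass without that filter (0.165) or with upper-quartile scaling (0.0502). Cyp51 passed in 1 of the 6 fits with a library left out, the one without GalTKO replicate 2 (0.038). Dhcr7 passed in 2 of them, without GalTKO replicate 2 (0.026) and without wildtype replicate 2 (0.0261). Without GalTKO replicate 1 or wildtype replicates 1 or 2 Amh had an adjusted p of 0.0625, 0.0632 and 0.0697. Of 3 genes that GDF9 is known to suppress in mouse granulosa cells, 0 passed in edgeR, DESeq2 or voom. In edgeR 1 had an unadjusted p under 0.05, as 17.1% of all tested genes did. The luteinizing hormone receptor gene Lhcgr stood at -1.41 ± 0.63, Kitl at -0.31 ± 0.12 and Plau at 0.08 ± 0.16 (log2, SE). Lhcgr had 352, 236 and 967.4 CPM in GalTKO replicates 1 to 3, against 825.1, 1276 and 2044 CPM in wildtype replicates 1 to 3. Its groups overlapped, and it is also one of the luteal markers used here, so its value is not that of granulosa cells alone.

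**Figure D5:**
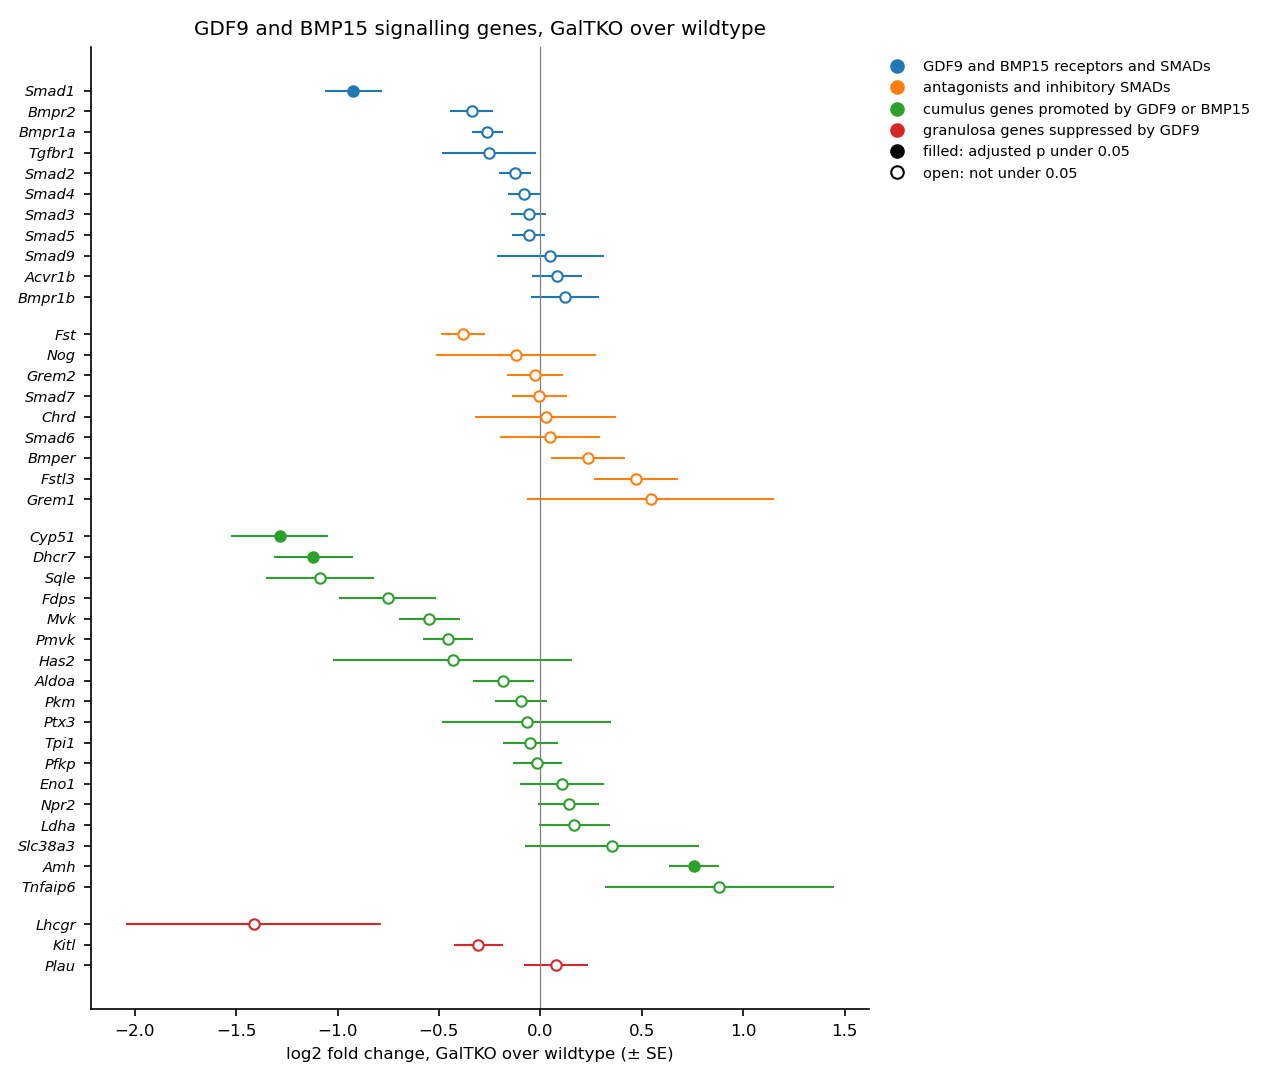
Log2 fold change of GalTKO over wildtype (x axis, points with SE from edgeR) for receptor and SMAD genes, antagonists and genes regulated by GDF9 or BMP15 (rows, sorted within each list). Filled points passed an adjusted p under 0.05: Smad1 at -0.92, Dhcr7 at -1.12, Cyp51 at -1.29 and Amh at 0.76.

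The summed level of the 9 granulosa markers ranged from 4904 to 5983 CPM in GalTKO and from 4751 to 5905 CPM in wildtype libraries, and that of the 4 luteal markers from 1317 to 4431 CPM in GalTKO and from 3607 to 4594 CPM in wildtype libraries. The 2 theca markers summed to 405.5, 9.71 and 298.6 CPM in GalTKO replicates 1 to 3, against 120.7, 133.9 and 121.9 CPM in wildtype replicates 1 to 3. The theca and luteal sums thus spread widely within the GalTKO group, and their part in the values of Smad1, Amh and the cholesterol genes was not tested.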

How the data were processed

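Ovary RNA of 3 GalTKO and 3 wildtype samples was sequenced from ribosome-depleted, strand-specific total RNA libraries, per the labels' protocols. The authors deposited raw read counts per Ensembl gene. The submitters' processing notes name STAR 2.7.6a, DESeq2 1.30.1, featureCounts 1.6.3, cutadapt 1.16 and the build GRCm38. How the counting treated strand and multi-mapped reads was not given in the sources used here. Symbols, positions and exon lengths came from GENCODE M21 (55227 of 55487 identifiers matched). Where a listed symbol had more than 1 identifier, the one with more counts was used.

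In R 4.3.3, edgeR 4.0.16 was applied to the counts: filterByExpr (minimum count 10, minimum total 15) left 16957 genes. TMM gave the scaling, and glmQLFit (robust) was run over the 6 libraries with a single genotype term. Benjamini-Hochberg adjustment ran over all genes, with a threshold of 0.05. The SE is the log2 fold change over the root of F, and intervals are at 95%. Ratios used counts + 0.5. Counting errors cover counting alone. No 2 libraries agreed within sampling noise (chi-square per degree of freedom at least 12.0). The fitting script was first run on simulated counts with known changes.

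The 5 genes and the 12 lists were chosen with earlier results of these data known. Genes were named by rule: the 5 genes, Galt, up to 4 genes of a list with the smallest p, any listed gene past the threshold, and the 6 most proportional genes with a mean of at least 1 CPM; others are marked as chosen after their values were seen. Alternatives tried were upper-quartile scaling, median-of-ratios scaling, DESeq2 1.42.0, limma 3.58.1 voom, other filters, a replicate block, a pseudocount of 5 and each library left out. Promoter sequences are from RefSeq. Figures were made with matplotlib 3.10.9.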

Additional observations from a re-analysis of the deposited data

How the results depend on the processing

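The log2 fold changes of Zp1, Zp2, Zp3, Gdf9 and Bmp15 kept their direction, and none passed the threshold, under the 13 alternatives of scaling, filter, test, block and left-out library and with library sizes from the growing oocyte genes. They ran from 0.02 to 0.34 for Zp1, -0.51 to -0.19 for Zp2, -0.45 to -0.12 for Zp3, -0.25 to -0.03 for Gdf9 and 0.10 to 0.36 for Bmp15, and the lowest adjusted p were 0.401, 0.157, 0.27, 0.381 and 0.391. With a library left out the 7 ratios that did not overlap kept their direction; the log2 difference ran from -0.69 to -0.51 for Zp2/Bmp15, -0.43 to -0.33 for Gdf9/Bmp15 and 0.42 to 0.54 for Zp1/Zp2. The ratio of Zp2 to Zp3, which overlapped, changed sign without GalTKO replicate 2 (0.01). The share of the growing oocyte counts kept its direction for all 5 genes with each library left out, with log2 differences of 0.14 to 0.25 for Zp1, -0.39 to -0.27 for Zp2, -0.33 to -0.19 for Zp3, -0.12 to -0.07 for Gdf9 and 0.23 to 0.32 for Bmp15; these alternatives were chosen after seeing the data. The number of genes changed was 433; it was 1049 with DESeq2 and 877 with no filter on low counts, and from 165 to 742 with a library left out. The cause was not tested. With the replicate number as a block it was 321, and the 5 genes stayed short of the threshold (Zp2 -0.30, Zp3 -0.25, Gdf9 -0.09, Zp1 0.19, Bmp15 0.28). Under the block Sqle (adjusted p = 0.0325 in edgeR), Fdps (0.0424) and Prlr (0.0187) passed, Dhcr7 did not (0.0769), and the genes called were 4 against 3 in the list promoted by GDF9 or BMP15 and 1 against 0 among luteal markers. The numbers were not taken to pair the samples. Deviations of same-numbered libraries correlated across genes at 0.093, -0.04 and 0.078, and those of different-numbered libraries at -0.118 to 0.029. These values do not decide whether the numbers pair the samples. DESeq2 called 3 receptor and SMAD genes against 1, 7 genes promoted by GDF9 or BMP15 against 3, and 1 against 0 in the early oocyte, surface, antagonist and luteal lists. With no filter on low counts 1 gene against 0 passed in the early oocyte, surface and antagonist lists. Of the theca markers Cyp17a1 passed without GalTKO replicate 2 (1.49). The 95% intervals in the report give the size of change these 3 libraries a genotype leave possible.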

Other observations

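Markers of other ovarian cells were followed beside the oocyte genes. Of 9 granulosa markers 1 rose, Amh, and 5 had an unadjusted p under 0.05 in edgeR, against 17.1% of all tested genes. Fshr, the follicle-stimulating hormone receptor gene, stood at 0.55 ± 0.20, Amhr2, the receptor gene of anti-Müllerian hormone, at 0.58 ± 0.22 and Foxl2, the granulosa identity factor, at -0.27 ± 0.10 (log2, SE). Of 4 luteal markers 0 passed in edgeR or voom and 1 did in DESeq2. In edgeR 1 had an unadjusted p under 0.05, as 17.1% of all tested genes did. The prolactin receptor gene Prlr had 559, 611.4 and 862 CPM in GalTKO replicates 1 to 3, against 960.9, 1172 and 1721 CPM in wildtype replicates 1 to 3. Akr1c18, which inactivates progesterone, spread from 265.3 to 1666 CPM in GalTKO and from 183.8 to 1295 CPM in wildtype libraries. Ptgfr, a prostaglandin receptor gene, stood at -0.03 ± 0.51 (log2, SE). Of 2 theca markers 0 passed in edgeR, DESeq2 or voom and 0 had an unadjusted p under 0.05. Cyp17a1, an enzyme of androgen synthesis, had 399.7, 7.29 and 296 CPM in GalTKO replicates 1 to 3, against 119.6, 132.1 and 119.2 CPM in wildtype replicates 1 to 3. Insl3 had 5.88, 2.42 and 2.55 CPM in GalTKO replicates 1 to 3, against 1.08, 1.82 and 2.73 CPM in wildtype replicates 1 to 3.

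Among oocyte genes of the lists, the profiles nearest to the mean of the 5 genes after Padi6 and Nlrp5 were those of Zar1 (proportionality 0.931), Astl, the protease that cleaves ZP2 after fertilization (0.922), and Tcl1 (0.918). Of the listed oocyte genes with at least 1 CPM, Oosp3 was the farthest at -0.12. Zar1, Astl and Tcl1 were chosen after their values were seen.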
